A study of Rattus norvegicus with 4 samples.

Results

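The genes described here are 10 rat genes for receptors and granule proteins of T cells and natural killer (NK) cells: Cd8a, Cd8b, Cd4, Cd3d, Cd3e, Cd3g, Cd2, Klrb1a, Nkg7 and Gzmb. They were taken by symbol from a table of 17899 genes, and all 10 had a row. They had been chosen by their TPM in injected against PBS synovium, so their values in that contrast are a description and carry no test. Messenger RNA was measured in bulk in 4 libraries of synovium, the lining tissue of the joint, from rats with osteoarthritis. 1 library (AdMSC 1) came from tissue injected with human AdMSCs, and 1 (SyMSC 1) from tissue injected with human SyMSCs. The labels use these abbreviations without spelling them out; they commonly stand for mesenchymal stem cells from fat and from synovium. 2 libraries (PBS 1 and PBS 2) came from tissue of the same disease state that had been injected with PBS, a salt buffer. The word injected, used alone, means injected with cells here. The design text places tissue collection on the day following the injection of the cells. By its title the study looks at synovium from before and from after the injection, and when the PBS tissue was taken is not clear. Strain, age, sex, how the disease was brought about and how many animals gave each library were not stated in the labels. Sample titles join PBS 1 to AdMSC 1 by the word Ad and PBS 2 to SyMSC 1 by the word Sy. The PBS titles also hold the word mix where the injected titles hold inj, and what mix means is not stated. The values are TPM, each gene's share of all transcripts after correction for gene length and scaled to the same total in every library, so levels of different genes can be set side by side; read depth is unknown. Each library had between 12582 and 13155 genes at 1 TPM or more. Nothing in the labels ties each library to an animal of its own. P-values therefore reflect only how far these libraries differ from each other, which may be technical.

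T cells recognise antigen with a receptor that is carried to the cell surface by the CD3 chains, encoded by Cd3d, Cd3e and Cd3g, and these chains define the T cell lineage. CD8 and CD4 are co-receptors that bind MHC class I and class II and bring the kinase Lck to the T cell receptor. CD8 is a pair of chains, either alpha with beta or alpha with alpha. In the rat these co-receptors are not confined to T cells: monocytes and macrophages carry CD4, and NK cells and activated macrophages can carry CD8. The CD3 chains are therefore the stricter sign of T cells in rat tissue, and the CD8 genes are set against them below.

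The CD8 genes were about 20 times higher in injected than in PBS synovium, while the CD3 genes were about 2 times higher and Cd4 was lower. Across the 10 genes, 7 had both injected libraries above both PBS libraries, 2 (Cd4 and Nkg7) had both below, and Gzmb overlapped. Such a gap was common in this table: 39.5% of the 13371 tested genes had both injected libraries above, and 39.4% had both below. The members were chosen with this contrast in view, so nothing is read from that count. All members but Gzmb passed the filter of 1 TPM in 2 libraries.

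Cd8a (gene ID 24930) encodes the alpha chain of CD8. It stood at 109 TPM in AdMSC 1 and 126 TPM in SyMSC 1, against 4.19 TPM in PBS 1 and 4.72 TPM in PBS 2. The injected libraries lay close together and far above the PBS libraries. The mean was 117 ± 11.5 TPM after injection and 4.46 ± 0.375 TPM with PBS (SD, n = 2 each), a ratio of 26.4. In log2(TPM + 1), a scale that shrinks the differences of genes with low values, it was higher by 4.44, which ranked 28 from the top among the 13371 tested genes. By level, Cd8a ranked 1318 and 1119 among all genes in AdMSC 1 and SyMSC 1, against 10597 and 10190 in PBS 1 and PBS 2.

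Cd8b (gene ID 24931) encodes the beta chain, which pairs with the alpha chain on cytotoxic T cells. Its level was 54.9 TPM in AdMSC 1 and 60.25 TPM in SyMSC 1, against 5.37 TPM in PBS 1 and 3.25 TPM in PBS 2. The groups did not overlap, and the ratio of their means was 13.4 (57.6 ± 3.8 TPM after injection and 4.31 ± 1.5 TPM with PBS, SD, n = 2 each). The ratio was smaller for the beta chain than for the alpha chain. Cd8a stood at 1.99 and 2.08 times the level of Cd8b in AdMSC 1 and SyMSC 1, against 0.780 and 1.45 times in PBS 1 and PBS 2.

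Cd4 (gene ID 24932) encodes the co-receptor for MHC class II. Its level was 119 TPM in AdMSC 1 and 125 TPM in SyMSC 1, against 174 TPM in PBS 1 and 205 TPM in PBS 2. Cd4 was the most abundant of the 10 genes in PBS synovium, with a level rank of 752 and 646 in PBS 1 and PBS 2. The injected libraries were both lower, at 0.642 times the PBS mean, with a difference of -0.63 in log2(TPM + 1). Cd4 and Cd8a were near equal after injection: Cd4 stood at 1.09 and 0.995 times the level of Cd8a in AdMSC 1 and SyMSC 1, against 41.6 and 43.5 times in PBS 1 and PBS 2. In bulk tissue, fewer cells of a type and less RNA per cell cannot be told apart, and in TPM a gain of other transcripts lowers the share of each gene.

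**Figure D1:**
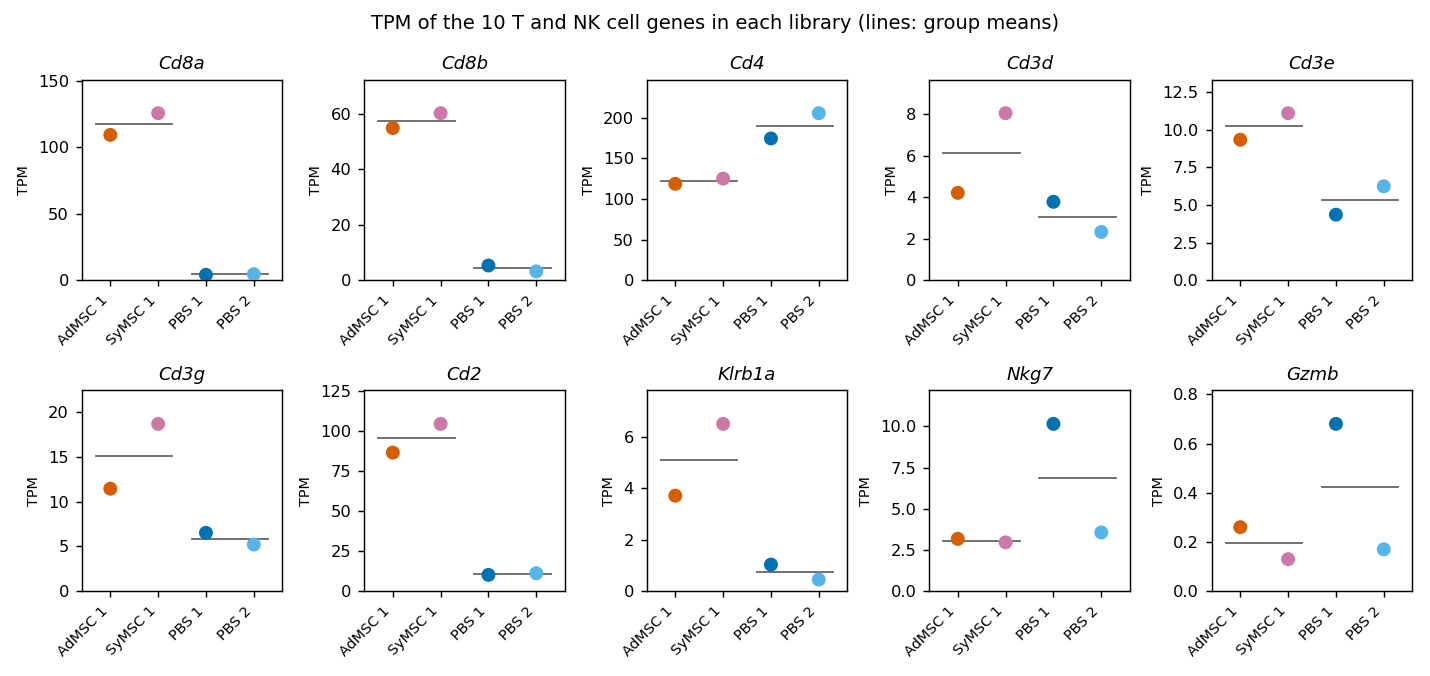
TPM of each of the 10 genes (a panel each, linear axis from 0) in the libraries AdMSC 1, SyMSC 1, PBS 1 and PBS 2; points are single libraries and lines are the means of the 2 injected and the 2 PBS libraries. Cd8a stands at 109 and 126 TPM in the injected libraries, against 4.19 and 4.72 TPM in the PBS libraries, while Cd4 is lower in the injected libraries and the CD3 genes stay under 19 TPM in every library.

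The CD3 genes were low in every library. Cd3d (gene ID 25710), the delta chain, stood at 4.21 TPM in AdMSC 1 and 8.04 TPM in SyMSC 1, against 3.78 TPM in PBS 1 and 2.33 TPM in PBS 2. Cd3e (gene ID 315609), the epsilon chain, stood at 9.33 TPM in AdMSC 1 and 11.1 TPM in SyMSC 1, against 4.36 TPM in PBS 1 and 6.24 TPM in PBS 2. Cd3g (gene ID 300678), the gamma chain, stood at 11.4 TPM in AdMSC 1 and 18.7 TPM in SyMSC 1, against 6.51 TPM in PBS 1 and 5.2 TPM in PBS 2. For all 3 chains the injected libraries lay above the PBS libraries, and SyMSC 1 was the highest library. The ratios of the means were 2.0 for Cd3d, 1.93 for Cd3e and 2.57 for Cd3g. For Cd3d the gap between AdMSC 1 and PBS 1 was 0.12 in log2(TPM + 1), which is smaller than the gap of 0.52 between the PBS libraries.

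Set against each other, the CD8 genes were higher by far more than the CD3 genes. The summed TPM of Cd8a and Cd8b was 164 in AdMSC 1 and 186 in SyMSC 1, against 9.56 in PBS 1 and 7.97 in PBS 2. The summed TPM of the 3 CD3 genes was 24.98 in AdMSC 1 and 37.8 in SyMSC 1, against 14.7 in PBS 1 and 13.8 in PBS 2. In PBS tissue the CD8 sum was thus below the CD3 sum, and in injected tissue it was several times above it. The ratio of the CD8 sum to the CD3 sum was 6.57 in AdMSC 1 and 4.91 in SyMSC 1, against 0.653 in PBS 1 and 0.579 in PBS 2. In log2(TPM + 1) the CD8 genes were higher by a mean of 3.96 and the CD3 genes by a mean of 0.94, a difference of 3.02. That difference was 3.17 between AdMSC 1 and PBS 1 and 2.88 between SyMSC 1 and PBS 2, and it stayed between 2.83 and 3.22 with each library left out in turn. Cd4 stood at 4.75 and 3.3 times the CD3 sum in AdMSC 1 and SyMSC 1, against 11.9 and 14.9 times in PBS 1 and PBS 2.

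**Figure D2:**
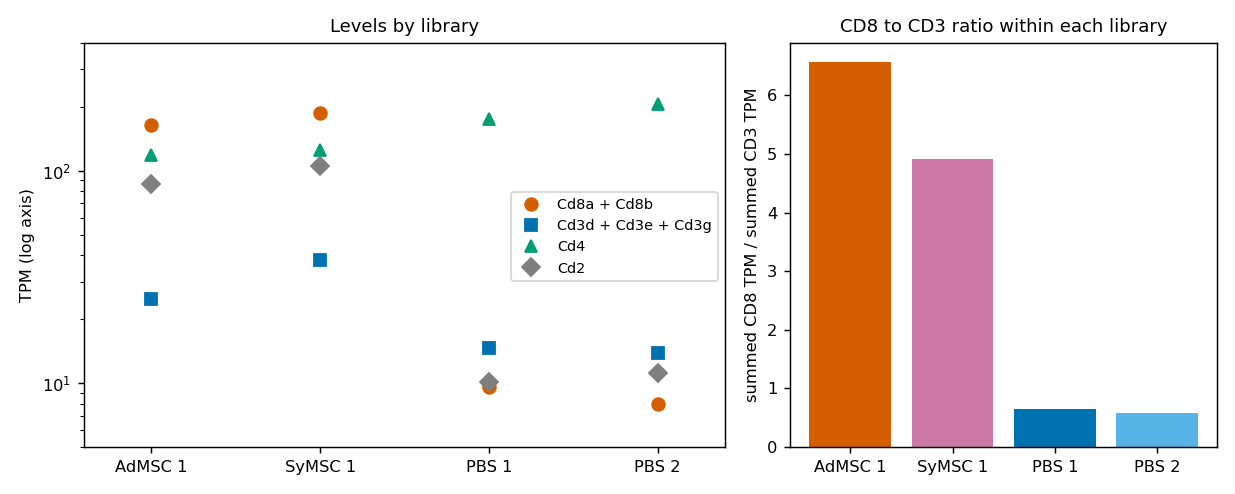
Left, TPM on a log axis of the CD8 genes (sum of Cd8a and Cd8b), the CD3 genes (sum of Cd3d, Cd3e and Cd3g), Cd4 and Cd2 in each library; right, the ratio of the CD8 sum to the CD3 sum within each library, as bars from 0. The ratio is 6.57 and 4.91 in AdMSC 1 and SyMSC 1, against 0.653 and 0.579 in PBS 1 and PBS 2.

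Cd2 followed the CD8 genes more than the CD3 genes. This gene (gene ID 497761) encodes an adhesion receptor of T cells and NK cells that binds CD48 in rodents, and in the rat it has also been found on some macrophages. Its level was 86.6 TPM in AdMSC 1 and 105 TPM in SyMSC 1, against 10.2 TPM in PBS 1 and 11.2 TPM in PBS 2, with no overlap and a ratio of means of 8.96. Cd2 stood at 9.28 and 9.43 times the level of Cd3e in AdMSC 1 and SyMSC 1, against 2.33 and 1.79 times in PBS 1 and PBS 2. In order of their difference in log2(TPM + 1), Cd8a (4.44), Cd8b (3.49) and Cd2 (3.04) came ahead of Klrb1a (1.79), and the CD3 chains lay between 0.78 and 1.20.

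The genes of NK cells and killer granules did not follow 1 pattern. Klrb1a (gene ID 362443) encodes NKR-P1A, an activating receptor used to mark rat NK cells, and stood at 3.71 TPM in AdMSC 1 and 6.50 TPM in SyMSC 1, against 1.03 TPM in PBS 1 and 0.450 TPM in PBS 2. The groups did not overlap, but the levels are low, and its neighbour and close paralog Klrb1b may share reads with it, so the values are uncertain. Nkg7 (gene ID 171062), a granule membrane protein of NK and cytotoxic T cells, stood at 3.17 TPM in AdMSC 1 and 2.96 TPM in SyMSC 1, against 10.2 TPM in PBS 1 and 3.56 TPM in PBS 2. Both injected libraries were below both PBS libraries, yet PBS 1 stood apart: the difference of -0.81 in log2(TPM + 1) became -0.17 without PBS 1 and -1.46 without PBS 2. Gzmb (gene ID 171528), which encodes the protease granzyme B of killer granules, stood at 0.260 TPM in AdMSC 1 and 0.130 TPM in SyMSC 1, against 0.680 TPM in PBS 1 and 0.170 TPM in PBS 2. It was below 1 TPM in every library and the groups overlapped. Granzyme genes have close paralogs, so this level is uncertain as well.

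The pairs of libraries named by the titles gave the same direction for every member. For all members but Gzmb this follows from the lack of overlap between the groups, so it adds nothing to it. At a mark of 2-fold in TPM + 1, 4 of the 10 genes were higher in AdMSC 1 than in PBS 1 (Cd8a, Cd8b, Cd2 and Klrb1a; 10.4% of all tested genes were), and 6 were higher in SyMSC 1 than in PBS 2 (the same 4 with Cd3d and Cd3g; 11.9% of all). In the other direction Nkg7 passed that mark in AdMSC 1 against PBS 1 (-1.42 in log2(TPM + 1)), as did 12.5% of all tested genes. In SyMSC 1 against PBS 2 Nkg7 did not (-0.20). Each is 1 library against 1, so there is no replicate check. Cd8a was the steadiest, with 4.41 in AdMSC 1 over PBS 1 and 4.47 in SyMSC 1 over PBS 2 in log2(TPM + 1). Cd3d differed most between the pairs, with 1.44 in SyMSC 1 over PBS 2 and 0.12 in AdMSC 1 over PBS 1. When the PBS libraries were exchanged between the pairs, Gzmb turned to 0.11 in AdMSC 1, against -0.42 with its own PBS library. Cd3d was then 0.92 in SyMSC 1 and 0.65 in AdMSC 1.

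**Figure D3:**
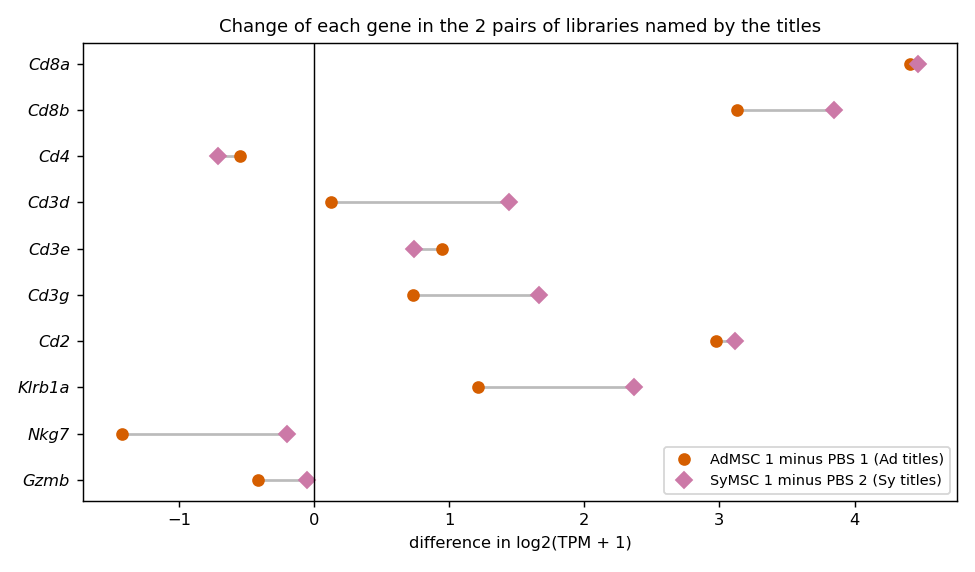
Difference in log2(TPM + 1) of each of the 10 genes between AdMSC 1 and PBS 1 (circles) and between SyMSC 1 and PBS 2 (diamonds), with a grey line joining the values of a gene. Cd8a is at 4.41 and 4.47, and the CD3 genes lie between 0.12 and 1.67.

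Of the injected libraries, SyMSC 1 was the higher for 8 of the 10 members, by 0.07 (Cd4) to 0.80 (Cd3d) in log2(TPM + 1); 34.3% of all tested genes were higher in SyMSC 1 than in AdMSC 1. With 1 library of each cell source this has no test. The title words had no part in choosing the members, so the Sy-titled libraries (SyMSC 1 and PBS 2) could be tested against the Ad-titled ones (AdMSC 1 and PBS 1), with injection as a second term. Of the 9 tested members 0 passed an adjusted p of 0.05 in limma, and 0 had an unadjusted p under 0.05; over all genes 1 passed (0.00748%) and 1085 (8.11%) had an unadjusted p under 0.05. The smallest adjusted p among members was that of Cd3e (log2 difference 0.33, SE 0.15, limma adjusted p = 0.608). That fit has 1 residual degree of freedom, so it does not show that the title arms were alike.

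To show the start regions of genes that differed by unlike amounts, the promoter windows of Cd8a and Cd2, which differed most among the members with a window, are printed beside those of Cd3d and Cd3e. Each runs 5′ to 3′ on the strand of its gene, from 250 bases before to 50 bases after the start in RefSeq (GRCr8). Capitals mark matches on either strand to TGTGGT, a core sequence of RUNX factors, to AGGAAG, a core sequence of ETS factors, or to CAGNTG, a form of the E-box; a stretch that matches on both strands counts once, and no motifs overlapped in these 4 windows. Positions count 1 as the first base of the gene and -1 as the base before it.
Cd8a, chr4:104923866-104924165, plus strand: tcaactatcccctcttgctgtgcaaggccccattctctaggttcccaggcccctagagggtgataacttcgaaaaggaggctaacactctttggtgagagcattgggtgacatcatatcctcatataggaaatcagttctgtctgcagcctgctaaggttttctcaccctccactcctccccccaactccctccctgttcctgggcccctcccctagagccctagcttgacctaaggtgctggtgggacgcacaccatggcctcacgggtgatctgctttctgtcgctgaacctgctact
Cd2, chr2:191412610-191412909, minus strand: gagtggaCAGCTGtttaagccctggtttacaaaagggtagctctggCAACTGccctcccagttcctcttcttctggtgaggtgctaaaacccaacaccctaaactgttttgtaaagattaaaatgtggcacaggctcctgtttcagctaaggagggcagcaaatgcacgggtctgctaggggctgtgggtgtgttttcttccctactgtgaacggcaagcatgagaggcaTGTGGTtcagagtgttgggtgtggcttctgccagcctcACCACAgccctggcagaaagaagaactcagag
Cd3d, chr8:54185269-54185568, plus strand: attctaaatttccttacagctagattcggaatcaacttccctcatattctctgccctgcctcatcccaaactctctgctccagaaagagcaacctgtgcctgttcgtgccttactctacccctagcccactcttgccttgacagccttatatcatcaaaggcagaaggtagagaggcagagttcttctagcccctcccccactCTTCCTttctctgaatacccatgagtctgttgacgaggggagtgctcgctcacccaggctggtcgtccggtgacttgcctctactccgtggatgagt
Cd3e, chr8:54211721-54212020, minus strand: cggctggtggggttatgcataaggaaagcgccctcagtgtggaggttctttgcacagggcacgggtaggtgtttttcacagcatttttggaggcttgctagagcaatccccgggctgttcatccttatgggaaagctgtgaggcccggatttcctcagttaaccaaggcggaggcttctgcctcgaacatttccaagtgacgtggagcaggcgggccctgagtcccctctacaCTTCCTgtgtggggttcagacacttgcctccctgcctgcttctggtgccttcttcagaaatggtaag
The Cd8a window held none of the 3 motifs. Cd2 held 2 RUNX cores, at positions -20 and 19 from the start, and 2 E-boxes. Cd3d and Cd3e held 1 ETS core each, at -47 and -17. Of the 8 members with a window, 3 held the RUNX core, 6 the ETS core and 3 the E-box; among all 33469 windows of the same length the shares were 17.3%, 34.5% and 50.2%. A match is a stretch of letters and not a measured binding site.

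Some members lie side by side in the genome. In the order of protein-coding genes in RefSeq, Cd8b and Cd8a are next to each other on chromosome 4, and Cd3g, Cd3d and Cd3e follow each other on chromosome 8. The outer neighbours of these groups differed by less than 1 in log2(TPM + 1). Rmnd5a, on the other side of Cd8a, stood at 14.7 TPM in AdMSC 1 and 13.5 TPM in SyMSC 1, against 18.4 TPM in PBS 1 and 14.3 TPM in PBS 2. Ube4a, beside Cd3g, stood at 18.8 TPM in AdMSC 1 and 19.1 TPM in SyMSC 1, against 15.5 TPM in PBS 1 and 13.0 TPM in PBS 2, so it too was higher in both injected libraries (0.39 in log2(TPM + 1)). Mpzl2, beside Cd3e, was lower in both, at 1.93 and 3.38 TPM in AdMSC 1 and SyMSC 1, against 3.87 and 6.49 TPM in PBS 1 and PBS 2. Igsf3, beside Cd2, stood between 4.14 and 5.84 TPM in the 4 libraries. Lag3, the checkpoint receptor gene beside Cd4, was near 1 TPM throughout, between 0.610 TPM in AdMSC 1 and 1.47 TPM in PBS 2.

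By pattern over the 4 libraries, the genes nearest to Cd8a were Adam8, Ltb4r, Fetub, Arg1 and Pla2g7, at distances of 0.285 to 0.436 in centred log2(TPM + 1), out of 9660 genes with a mean of at least 5 TPM. Adam8, a metalloprotease of leukocytes, stood at 92.7 TPM in AdMSC 1 and 136 TPM in SyMSC 1, against 3.88 TPM in PBS 1 and 5.12 TPM in PBS 2. Ltb4r, the receptor for the neutrophil attractant leukotriene B4, stood at 33.6 and 43.5 TPM in AdMSC 1 and SyMSC 1, against 1.05 and 0.640 TPM in PBS 1 and PBS 2. In this order Cd8b came 44th and Cd2 came 71st, while Cd3g came 838th and Cd3e 1325th. Among the genes nearest to Cd4 were Ergic3, Dtwd1, Tns1 and Amacr (distances of 0.0253 to 0.0518). Among those nearest to the mean of the CD3 genes were Megf9, Morc3, Abca7 and Fmo5 (distances of 0.0349 to 0.116). With 4 libraries that fall into 2 groups, such likeness describes the size of the gap between the groups and little else.

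Other genes of T and NK cells, with their ligands, cytokines and the markers of macrophages and dendritic cells, were taken from 10 fixed lists. These hold none of the 10 members. A gene was called at a limma adjusted p under 0.05 for injected against PBS synovium. The lists were chosen with earlier results of these data known. Their counts and p-values are therefore no independent test of that contrast. Over all 13371 tested genes 48.4% were called, 23.7% higher and 24.7% lower, with a median log2 change of 0.00. Of 111 tested list genes 53 were higher and 11 lower. 16 of the 111 passed the filter through the injected libraries alone, 13 of them called higher, and such genes could enter only by being higher after injection. Their number is given with each list, and the count and median of a list that holds them lean upwards by construction. On the other side, 2 genes (Lag3 and Batf3) passed through the PBS libraries alone and could enter only by being lower after injection. Neither was called.

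Of 16 tested genes of T cell receptor signalling 11 rose, 0 fell and 5 missed the threshold, with a list median of 0.89. Of the 11, 4 passed the filter through the injected libraries alone, which leaves 7 of 12 higher. The adaptor gene Lcp2 (SLP-76) was the largest of these, at 89.96 TPM in AdMSC 1 and 103 TPM in SyMSC 1, against 24.7 TPM in PBS 1 and 22.4 TPM in PBS 2 (log2 change 1.99, SE 0.14, limma adjusted p = 0.000345). Lcp2 is also used by myeloid cells. Zap70, the kinase that binds the CD3 chains, rose at a low level, to 5.50 and 8.22 TPM in AdMSC 1 and SyMSC 1, against 1.36 and 2.0 TPM in PBS 1 and PBS 2 (log2 change 1.54, limma adjusted p = 0.00371). The adaptor gene Sh2d2a rose by 1.56. Cd247, which encodes the zeta chain of the same receptor complex, rose by 0.74, and Lck, the kinase that CD8 and CD4 bind, by 0.87. Cd5 (1.51) and Lat (0.41) did not pass. The count of 11 was 4 without SyMSC 1 and 7 without PBS 2. Sh2d2a was lost without SyMSC 1 (limma adjusted p = 0.0588) and Lck without SyMSC 1 (0.0927) or PBS 2 (0.0697). Cd247 lay near the threshold (0.0472). It was lost without SyMSC 1 (0.218), PBS 1 (0.0959) or PBS 2 (0.124), with the title arm as a block (0.0628), and under either other scaling (0.053 and 0.0641).

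Of 10 tested costimulatory and checkpoint receptors 7 rose, 0 fell and 3 missed the threshold (median 1.07). The checkpoint receptor gene Havcr2 (TIM-3), which macrophages also use, rose by 1.79 (SE 0.19, limma adjusted p = 0.00112), the costimulator gene Icos by 1.48, and Il2ra, a chain of the interleukin 2 receptor, by 1.14. Other checkpoint receptor genes were low and did not share a direction. Lag3 (-0.40, not called) and Pdcd1 (below the filter) were lower in both injected libraries. Ctla4 and Tigit, also below the filter, were higher in both. Cd28, the main costimulator of T cells, was called higher (0.71), but reached the filter through the injected libraries alone. It and 1 other of the 7 did so, which leaves 5 of 7 higher among genes not admitted by 1 group alone. The count was 4 without SyMSC 1 and 4 without PBS 1. Il2ra was lost without SyMSC 1 (limma adjusted p = 0.0725) or PBS 1 (0.0533), and Cd28 without AdMSC 1 (0.0668), SyMSC 1 (0.0999) or PBS 1 (0.0525).

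Among transcription factors of T and NK cells 4 of 10 tested rose, 1 fell and 5 did not pass (median 0.25). Runx3, which keeps Cd8 genes active in T cells and also acts in myeloid cells, stood at 20.5 TPM in AdMSC 1 and 22.1 TPM in SyMSC 1, against 1.77 TPM in PBS 1 and 2.07 TPM in PBS 2 (log2 change 2.94, SE 0.16, limma adjusted p = 0.000243). Zbtb7b, which directs T cells to the CD4 fate, rose by 1.35. Foxp3, the factor of regulatory T cells, was called higher (0.83) at a low level of 1.73 and 2.65 TPM in AdMSC 1 and SyMSC 1, against 0.920 and 0.640 TPM in PBS 1 and PBS 2; it and 1 other of the 4 called higher reached the filter through the injected libraries alone. Tox, a factor of T cell development, fell by 1.01. Tcf7, a factor of naive T cells, did not pass (-0.25). Bcl11b, which fixes the T cell fate, stayed below the filter, with 0.910 and 1.04 TPM in AdMSC 1 and SyMSC 1, against 0.210 and 0.250 TPM in PBS 1 and PBS 2. Tbx21 and Eomes, which direct cytotoxic and NK cells, were also below the filter, between 0.0700 and 1.13 TPM. The count of 5 was 2 without SyMSC 1 and 3 without PBS 2. Tox (limma adjusted p = 0.0506) and Foxp3 (0.131) were lost without SyMSC 1, and Foxp3 without PBS 2 (0.0773).

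Of 14 tested NK cell receptors and adaptors 5 rose, 0 fell and 9 missed the threshold (median 0.92). Klrb1b, the inhibitory relative of Klrb1a, stood at 8.91 TPM in AdMSC 1 and 18.0 TPM in SyMSC 1, against 2.69 TPM in PBS 1 and 0.600 TPM in PBS 2 (log2 change 2.50, SE 0.54, limma adjusted p = 0.0209). That call was lost without SyMSC 1 (0.0652). The lectin-like receptor gene Klra5 rose by 1.25 and the adaptor gene Hcst (DAP10) by 1.11. Il18rap, a chain of the interleukin 18 receptor, was called higher (2.16), as was the natural cytotoxicity receptor gene Ncr3 (NKp30), at 1.86 and 2.0 TPM in AdMSC 1 and SyMSC 1, against 0.0800 and 0.290 TPM in PBS 1 and PBS 2 (1.31, limma adjusted p = 0.0027). Both reached the filter through the injected libraries alone, as did 2 more of the 14 that were not called. The related receptor gene Ncr1 (NKp46) stood at 2.05 and 6.23 TPM in AdMSC 1 and SyMSC 1, against 0.900 and 1.17 TPM in PBS 1 and PBS 2 (limma adjusted p = 0.0653), Klrk1 (NKG2D) had an adjusted p of 0.0903 in limma, and Klrd1 (CD94) was at most 1.03 TPM. Klra5 and Klrb1b belong to families of similar genes, so their values are uncertain.

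Cytotoxic effectors did not move together: 2 of 7 tested rose, 2 fell and 3 did not pass (median -0.44). Srgn, the granule proteoglycan serglycin that many leukocytes make, rose to 520 and 918 TPM in AdMSC 1 and SyMSC 1, against 96.98 and 101 TPM in PBS 1 and PBS 2 (up by 2.79 in log2, limma adjusted p = 0.00135), and Cst7, a cystatin of granules, rose by 1.01. Tnfsf10, the death ligand TRAIL, fell by 2.98, and Serpinb9, an inhibitor of granzyme B, fell by 0.90. Prf1, which encodes perforin, stood at 0.840 and 1.08 TPM in AdMSC 1 and SyMSC 1, against 2.67 and 0.930 TPM in PBS 1 and PBS 2, with no call (limma adjusted p = 0.294). Gzmm (-0.59) and Ctsw (-0.17) did not pass, and Gzma was at most 0.50 TPM, listed at 0 in SyMSC 1.

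**Figure D4:**
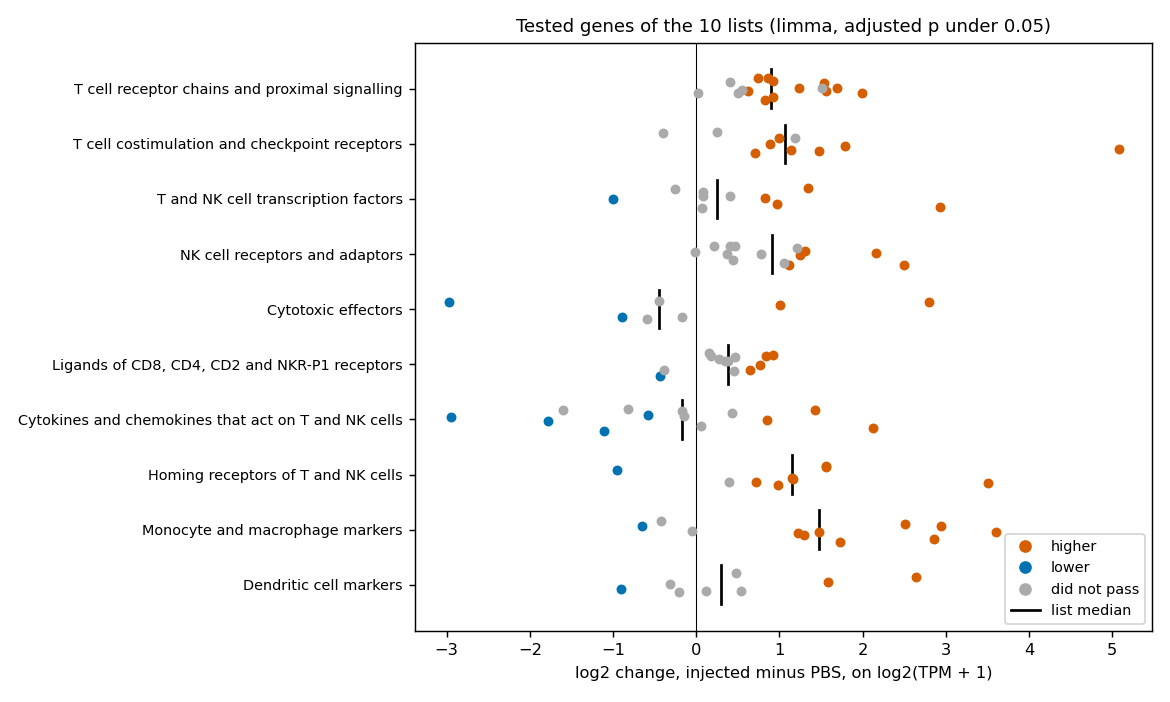
Log2 change (injected minus PBS, on log2(TPM + 1)) of every tested gene of the 10 fixed lists, coloured by its limma call; the black bar is the list median. Receptor signalling, costimulation and homing genes lie mostly above 0, with medians of 0.89, 1.07 and 1.15. Cytotoxic effectors (-0.44) and cytokines that act on T and NK cells (-0.17) have medians below 0. Genes that passed the filter through the injected libraries alone number 4, 2, 2, 0 and 1 in these lists, in that order. Such genes make a median lean upwards by construction. In the costimulation list, 1 gene passed through the PBS libraries alone.

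The list of ligands of these receptors, which also holds regulators of MHC genes, changed by little: 4 of 13 tested rose, 1 fell and 8 did not pass (median 0.38). Nlrc5 (0.92) and Ciita (0.84), the activators of MHC class I and class II genes, rose, as did the class II genes RT1-Bb (0.77) and RT1-Da (0.64). Cd48, the ligand of CD2 in rodents, fell by 0.43, to 287 and 254 TPM in AdMSC 1 and SyMSC 1, against 367 and 362 TPM in PBS 1 and PBS 2 (limma adjusted p = 0.0332). B2m (0.38), the light chain of class I, and Cd74 (0.28), the class II invariant chain, did not pass. Nor did the other class II genes of the list, RT1-Ba (0.46) and RT1-Db1 (0.15), or the class I genes RT1-A1 (0.45) and RT1-A2 (0.34). These calls rest on few libraries: the count of 5 was 1 without SyMSC 1, 1 without PBS 1 and 3 without PBS 2, and Cd48 was lost without SyMSC 1 (limma adjusted p = 0.123), PBS 1 (0.139) or PBS 2 (0.127). Without SyMSC 1, the calls of Nlrc5 (0.108), Ciita (0.0563), RT1-Bb (0.0733) and RT1-Da (0.169) were lost too, and without PBS 1 those of Nlrc5 (0.0671), RT1-Bb (0.0873) and RT1-Da (0.166). RT1-Da was also lost without PBS 2 (0.056) and under either other scaling (0.0607 and 0.0799). RT1 genes have close paralogs and are uncertain.

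Cytokines and chemokines that act on T and NK cells split, with 3 of 13 tested higher, 4 lower and 6 that did not pass (median -0.17). Cxcl9, which draws activated T cells and NK cells, fell most: 7.76 TPM in AdMSC 1 and 7.46 TPM in SyMSC 1, against 72.3 TPM in PBS 1 and 59.6 TPM in PBS 2 (log2 change -2.95, SE 0.15, limma adjusted p = 0.000239). Its relative Cxcl10 stood at 5.30 and 7.10 TPM in AdMSC 1 and SyMSC 1, against 50.3 and 8.16 TPM in PBS 1 and PBS 2, with no call (limma adjusted p = 0.292). Cx3cl1, which draws cells that carry its receptor Cx3cr1, fell by 1.79, and Il15, a survival cytokine of NK and CD8 T cells, fell by 1.11. Il18, which activates NK cells, rose by 1.43 and Ebi3, a subunit of interleukins 27 and 35, by 2.13. Il15ra, the receptor chain that presents Il15, was called higher (0.85), but reached the filter through the injected libraries alone. Xcl1, an attractant made by T and NK cells, fell by 0.59. Ebi3 was lost without PBS 1 (limma adjusted p = 0.0568) or PBS 2 (0.0805), and Il15ra without AdMSC 1 (0.0657), SyMSC 1 (0.0662) or PBS 1 (0.0558). Xcl1 was lost with each library left out (0.0771 to 0.215) and with the title arm as a block (0.0523).

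Of 9 tested homing receptors 7 rose, 1 fell and 1 missed the threshold (median 1.15), and 2 of the 7 reached the filter through the injected libraries alone. Cxcr4, which most leukocytes carry, stood at 174 TPM in AdMSC 1 and 348 TPM in SyMSC 1, against 18.2 TPM in PBS 1 and 23.7 TPM in PBS 2 (log2 change 3.51, SE 0.37, limma adjusted p = 0.00297). Ccr7, which guides T cells and dendritic cells to lymph nodes, rose by 1.56 and Cxcr6, a receptor of T and NK cells, by 1.15. S1pr1, which lets lymphocytes leave tissue and is abundant in endothelium, fell by 0.95. The count of 8 was 5 without AdMSC 1 and 4 without SyMSC 1; Ccr7 was lost without AdMSC 1 (limma adjusted p = 0.0682) or SyMSC 1 (0.114), and at a pseudocount of 0.1 (0.0673), and Cxcr6 without AdMSC 1 (0.057) or SyMSC 1 (0.0746).

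Markers of the other cells that can carry CD4 or CD8 changed as well. Of 11 macrophage markers tested, 8 rose, 1 fell and 2 did not pass (median 1.47). The fractalkine receptor gene Cx3cr1 rose by 3.61, the integrin gene Itgam by 2.94, the Fc receptor gene Fcgr1a by 2.86 and the scavenger receptor gene Msr1 by 2.51. C1qb, a complement gene of resident macrophages, fell by 0.65, a call that was lost without each of AdMSC 1, SyMSC 1 and PBS 2 (limma adjusted p of 0.0922 to 0.137). Of 8 dendritic cell markers tested, Irf8 (1.58) and the integrin gene Itgax (2.64) rose, and Zbtb46, a factor of classical dendritic cells, fell (-0.91). The other 5 did not pass, of which 1 reached the filter through the injected libraries alone and 1 (Batf3) through the PBS libraries alone. Itgax was lost without PBS 1 (limma adjusted p = 0.0787) or PBS 2 (0.139) and with the title arm as a block (0.0585), and Zbtb46 without SyMSC 1 (0.0572).

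Summed over fixed marker lists, the cell types differed by unlike amounts, and the part of any of them in the difference of the CD8 genes was not tested. The 11 T cell markers with a row summed to 69.97 TPM in AdMSC 1 and 99.9 TPM in SyMSC 1. Their sums were 45.7 TPM in PBS 1 and 37.8 TPM in PBS 2. All 11 lay higher in both injected libraries, as did 39.5% of all tested genes. Of the 11, 3 are the CD3 members, chosen on this contrast, and Cd28 reached the filter through the injected libraries alone. Nothing is therefore read from that count. The 12 NK cell markers summed to 31.4 and 44.4 TPM in AdMSC 1 and SyMSC 1, against 22.7 and 12.3 TPM in PBS 1 and PBS 2; 7 of the 12 lay higher in both injected libraries, 2 lay lower, and 4 were below 1 TPM in every library. The 11 macrophage markers summed to 4254 and 4497 TPM in AdMSC 1 and SyMSC 1, against 2097 and 2667 TPM in PBS 1 and PBS 2. The 10 neutrophil markers had the highest ratio among the lists, with sums of 2078 and 3625 TPM in AdMSC 1 and SyMSC 1, against 330 and 89.4 TPM in PBS 1 and PBS 2, and 6 of the 10 lay higher in both injected libraries. These neutrophil values rest on single libraries: their ratio was 31.9 without PBS 1 and 8.64 without PBS 2. The 8 B cell markers overlapped between the groups, as did the 5 erythroid genes, and Gzma, Ltf, Pax5 and Mzb1 were each listed at 0 in at least 1 library. The 9 dendritic cell markers summed to 141 and 179 TPM in AdMSC 1 and SyMSC 1, against 81.1 and 97.6 TPM in PBS 1 and PBS 2, and the 6 mast cell markers to 47.5 and 18.8 TPM, against 84.4 and 108 TPM. The 8 synovial fibroblast markers, which check the labelled tissue, summed to 16946 and 11522 TPM in AdMSC 1 and SyMSC 1, against 38408 and 31264 TPM in PBS 1 and PBS 2.

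The ratio of injected to PBS means was 2.03 for the T cell sum and 2.17 for the NK cell sum. It was 1.84 for the macrophage sum and 13.6 for the neutrophil sum, beside 19.96 for the CD8 sum and 0.642 for Cd4. The T cell sum holds the CD3 members, so its ratio partly repeats their values. Within the macrophage sum, single markers ranged from -0.65 (C1qb) to 3.61 (Cx3cr1) in log2 change. Divided by each of the 11 macrophage markers in turn, Cd4 was lower in both injected libraries for 10 and overlapped for C1qb. The ratio of injected to PBS means of these quotients was below the 0.642 of Cd4 itself for 8 markers, and ranged from 0.0453 (over Cx3cr1) to 1.01 (over C1qb). Cd4 was chosen on this contrast, and those 8 markers are the ones called higher above. The quotients thus restate values already given and add no test.

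**Figure D5:**
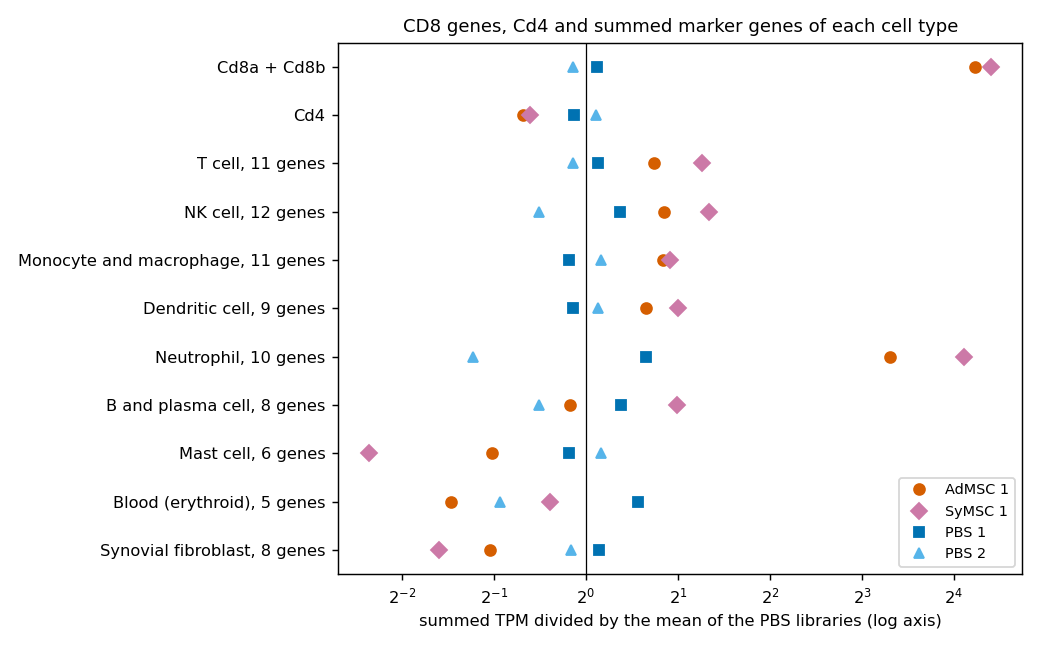
Summed TPM of the CD8 genes, Cd4 and the marker genes of each cell type in each library, divided by the mean of the PBS libraries, on a log axis of base 2. The CD8 genes (19.96 times the PBS mean) lie above the T cell (2.03 times), NK cell (2.17 times) and macrophage sums (1.84 times). The neutrophil markers (13.6 times) spread widely between the PBS libraries, and Cd4 lies below 1. The T cell sum holds the CD3 members. Single macrophage markers ranged from -0.65 (C1qb) to 3.61 (Cx3cr1) in log2 change.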

How the data were processed

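Values are the authors' deposited TPM, per the file header, with 2 decimals and a sum of 1000000 in each library over 17899 rat genes. The submitters' processing notes name HISAT2 2.0.4 and the build Rnor_6.0. How reads were counted, against which annotation, with or without strand, and whether human reads were kept apart is not given in the sources used here. Since TPM keeps no depth, no counting interval can be given.

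Genes were matched by symbol and gene ID; 16718 IDs were found in RefSeq (GRCr8), used for names, gene order and promoter windows. All 13371 genes that reached 1 TPM in 2 or more libraries were tested on log2(TPM + 1) with limma 3.58.1 in R 4.3.3 (eBayes, trend and robust), comparing 2 injected with 2 PBS libraries (residual degrees of freedom: 2); p-values were adjusted by Benjamini-Hochberg over all genes; the step was tested on simulated data. Members and lists were chosen with earlier results of these data known. From each list up to 4 called genes with the largest change and a mean of at least 2 TPM were named, with some of these not reported here; Cd247, Lck, Lat, Cd5, Cd28, Foxp3, Tcf7, Bcl11b, Tbx21, Eomes, Ncr1, Ncr3, Klrk1, Klrd1, Prf1, Gzmm, Gzma, Ctsw, Cxcl10, B2m, Cd74, Cd48, S1pr1, C1qb, Il15, Il15ra, Xcl1 and the gene neighbours were added after their values were seen. Pdcd1, Ctla4, Tigit, RT1-A1, RT1-A2, RT1-Ba, RT1-Db1 and Batf3 were added in the same way. Alternatives were other scalings, no filter, the title arm as a block, a pseudocount of 0.1, exchanged PBS libraries and each library left out.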

Additional observations from a re-analysis of the deposited data

Results flagged for a closer look

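Some genes outside the 10 members moved in opposite directions in the library pairs named by the titles; the difference was not tested, since each pair is 1 library against 1. In log2(TPM + 1) the perforin gene Prf1 changed by -0.996 in AdMSC 1 against PBS 1 and by 0.108 in SyMSC 1 against PBS 2. Tbx21, at 0.250 and 0.600 TPM in AdMSC 1 and SyMSC 1 against 1.13 and 0.260 TPM in PBS 1 and PBS 2, changed by -0.769 in AdMSC 1 against PBS 1 and by 0.345 in SyMSC 1 against PBS 2. The protease gene Ctsw changed by -0.611 in AdMSC 1 against PBS 1 and by 0.278 in SyMSC 1 against PBS 2. In each case PBS 1 held the highest value of the 4 libraries.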

How the results depend on the processing

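With 2 libraries a group and unknown depth, values near 1 TPM are imprecise. The limma count of called genes was 6476 for injected against PBS and lay between 4590 and 5379 with 1 library left out, where the lone library is assumed to vary like the other group. Over the lists it was 64, and between 38 (without SyMSC 1) and 58 with 1 library left out. A pseudocount of 0.1 moved the differences of Cd8a to 4.69, Klrb1a to 2.67 and Gzmb to -0.67. Left-out libraries gave 4.34 to 4.54 for Cd8a, 3.20 to 3.78 for Cd8b, -0.75 to -0.51 for Cd4, 2.91 to 3.18 for Cd2, 0.39 to 1.18 for Cd3d, 0.63 to 1.06 for Cd3e, 0.87 to 1.53 for Cd3g, 1.46 to 2.13 for Klrb1a, -1.46 to -0.17 for Nkg7 and -0.49 to 0.03 for Gzmb; the CD8 minus CD3 difference was 2.83 to 3.22. With no filter, 0 genes were called between Sy-titled and Ad-titled libraries, against 1; that fit has no left-out version, since no residual degrees of freedom remain. Of 49 called genes named in the text or by the rule, 19 lost the call without SyMSC 1, 11 without PBS 1, 9 without PBS 2 and 6 without AdMSC 1, and 0 reversed. With the title arm as replicate block, limma called 6590 genes, 67 of them in the lists, and 3 named calls were lost (Itgax, Cd247 and Xcl1). With no filter 5 were lost (Cd247, RT1-Bb, RT1-Da, Xcl1 and C1qb). Median-ratio scaling lost 4 (Cd247, RT1-Da, Xcl1 and C1qb) and upper-quartile scaling 2 (Cd247 and RT1-Da). A pseudocount of 0.1 lost 2 (Ccr7 and Xcl1). The pairing rests on 1 word in the titles; over genes, the differences between arms correlated at 0.117 between injected and PBS libraries. Of the genes called, 44.9% were higher under upper-quartile scaling and 52.3% under median-ratio scaling, against 49.0% in the reported fit; the direction of each member was the same under both.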
